A study of Mus musculus with 2 samples.

Results

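The miR-322 and miR-503 cluster is a group of 7 microRNA (miRNA) hairpin genes on the mouse X chromosome, also known by the name H19X. The genes are Mir322, Mir503, Mir351, Mir542, Mir450-2, Mir450-1 and Mir450b. They were taken as the rows with those symbols in the GENCODE M21 annotation, which gave 7 of the 2202 miRNA genes measured. The samples were adrenal glands of male B6CASTF1/J mice, an F1 hybrid strain, at 14 days of age. The labels give 1 group of 2 microRNA-seq libraries, called biological replicates 1 and 2, with no treatment, mutation or control group. The biosample of each library names 3 males and both cite the same donor record, so pooling of animals cannot be told from the labels.

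A miRNA hairpin is cut into a short duplex, and a strand from its 5′ arm or 3′ arm guides the silencing complex to messenger RNAs. Pairing rests mainly on the seed, bases 2 to 8 of the mature miRNA. In cultured cells miR-322 and miR-503 are known to repress cyclins and other drivers of the cell cycle. The cluster is also known from differentiating skeletal muscle. The adrenal cortex makes steroid hormones, and the medulla makes catecholamines.

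The sequences that separate the members are their seeds, shown in capitals on RefSeq mature miRNAs of GRCm38.p6, written 5′ to 3′. The first set shows miR-322-5p and miR-503-5p beside miRNAs of the miR-15/16 family, which is known for repressing cyclins and the survival factor Bcl2.
miR-322-5p: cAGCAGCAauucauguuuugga
miR-503-5p: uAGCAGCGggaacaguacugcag
miR-16-5p: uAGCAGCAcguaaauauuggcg
miR-15a-5p: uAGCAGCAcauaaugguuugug
miR-195a-5p: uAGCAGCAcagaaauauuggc
miR-322-5p carries the seed of miR-16-5p, miR-15a-5p and miR-195a-5p. Within the first 8 bases, counted from 1 at the 5′ end, miR-503-5p differed from miR-322-5p by C1U and A8G, so the last base of its seed is its own. No other mature miRNA in the table had the seed of miR-503-5p.

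The second set shows miR-351-5p with the miR-125 family, the vertebrate relatives of the developmental timing miRNA lin-4 of the worm.
miR-351-5p: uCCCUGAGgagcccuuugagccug
miR-125a-5p: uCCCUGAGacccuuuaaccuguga
miR-125b-5p: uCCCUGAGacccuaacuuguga
The first 8 bases of miR-351-5p and miR-125a-5p were identical. Compared position by position without gaps, 14 of the 24 positions differed, all after the seed. Like stretches that are shifted, such as cccuuu in both, count as differences in this comparison. A cluster on the X chromosome thus holds 1 hairpin with the seed of miR-15/16 and 1 with the seed of miR-125.

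The third set shows the 3′ arms of the miR-450 hairpins, which tell these genes apart.
miR-450a-1-3p: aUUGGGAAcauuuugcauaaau
miR-450a-2-3p: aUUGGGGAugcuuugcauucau
miR-450b-3p: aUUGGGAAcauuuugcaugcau
From miR-450a-1-3p to miR-450b-3p the differences were A19G and A20C, and both have the same seed. From miR-450a-1-3p to miR-450a-2-3p there were 6 differences, of which A7G lies in the seed. The 5′ arms give miR-450a-5p from both Mir450-1 and Mir450-2, with 1 sequence found in 2 hairpins. The RefSeq hairpins are shown with their longest shared run, 25 bases, in capitals; they lie on the minus strand at chrX:53048154-53048244 for Mir450-1 and chrX:53048299-53048367 for Mir450-2.
Mir450-1: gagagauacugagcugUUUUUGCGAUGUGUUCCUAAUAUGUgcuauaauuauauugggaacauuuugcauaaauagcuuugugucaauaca
Mir450-2: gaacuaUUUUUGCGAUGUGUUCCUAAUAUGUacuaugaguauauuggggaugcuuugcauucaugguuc
The shared run covers miR-450a-5p. The files keep multimapping reads apart from the genes, so the counts of Mir450-1 and Mir450-2 are uncertain and may be too low. The other 5 members share no 20-base stretch with another miRNA gene at another locus, as opposed to 1087 of all 2202 hairpins that do. Mir450b comes close to this limit, with a run of 19 bases shared with Mir450-1, so short reads of it might also map to both.

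The 7 hairpins lie on the minus strand of chromosome X within 6353 bases, from 53047997 to 53054349 on mm10. In the direction of transcription the order was Mir322, Mir503, Mir351, Mir542, Mir450-2, Mir450-1 and Mir450b. Mir322 and Mir503 are 200 bases apart, Mir503 and Mir351 630, and Mir351 and Mir542 3767. Mir542 is 1035 bases before Mir450-2, and the 3 miR-450 hairpins follow each other at 54 and 75 bases. In GENCODE M21 none of the 7 lies in an exon or intron of another gene. The long non-coding gene C430049B03Rik, from 53055046 to 53057190, lies upstream on the same strand, and the lincRNA Gm28730, from 53051194 to 53053159, lies between Mir351 and Mir542.

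The libraries held 3464837 sense miRNA counts in replicate 2 and 3024662 in replicate 1, so 1 count was 0.289 CPM in replicate 2 and 0.331 CPM in replicate 1, where CPM is the count scaled to a common miRNA total. Multimapping reads were 29.4% and 27.5% of the file in replicates 2 and 1. Levels are CPM on the strand of the gene, with means ± SD of n = 2, and a hairpin's count sums both of its arms. The labels give a size range below 30, with no unit, near the length of mature miRNAs and not of hairpins. Hairpins were therefore compared without division by hairpin length. How fully each sequence was captured in a library was not measured, so ratios between hairpins are ratios of counts. Intervals are exact at 95% and hold the counting error of reads alone. Copies made by PCR were not told apart from separate molecules, so the intervals may be too narrow. No level was tested, as the smallest p that an exact two-sided permutation of signs allows with 2 libraries is 0.5. In whole tissue, fewer cells of a type and less RNA per cell cannot be told apart.

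Together the 7 genes held 3.57% of miRNA counts in replicate 2 (interval 3.55 to 3.59) and 3.75% in replicate 1 (interval 3.73 to 3.77). All 7 were at 2 CPM or more in both libraries, a level reached by 364 of the 2202 genes. Their summed level was 35723 CPM in replicate 2 and 37525 CPM in replicate 1, a ratio of 0.952.

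Mir322 carried most of this. Mir322 (ENSMUSG00000065418.1) was at 32072 CPM in replicate 2 and 34036 CPM in replicate 1, which placed it 10th and 8th among all miRNA genes. Multimapping reads are in no gene's count, so miRNA genes with repeated sequences may be counted too low. The ranks given here and the cluster's share of miRNA counts may therefore be too high. Of the cluster's counts 89.8% in replicate 2 (interval 89.6 to 89.9) were Mir322, and 90.7% in replicate 1 (interval 90.5 to 90.9). Its RefSeq hairpin is shown with both mature arms in capitals, since the deposited count does not say which arm the reads came from; it lies on the minus strand at chrX:53054255-53054349.
Mir322: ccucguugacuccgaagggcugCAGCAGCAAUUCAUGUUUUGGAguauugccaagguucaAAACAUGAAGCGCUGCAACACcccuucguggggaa

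Mir503 lies closest to Mir322 and is usually named with it, yet its level was far lower. Mir503 (ENSMUSG00000076122.1, chrX:53053984-53054054) was at 356 CPM in replicate 2 and 312 CPM in replicate 1. For every 1000 counts of Mir322 there were 11.1 of Mir503 in replicate 2 (interval 10.5 to 11.8) and 9.16 in replicate 1 (interval 8.58 to 9.77). The nearest neighbour of Mir322 thus ranked 123rd and 131st among all genes in replicates 2 and 1.

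Mir351, whose 5′ arm has the miR-125 seed, came second in the cluster. Mir351 (ENSMUSG00000065503.1, chrX:53053255-53053353) was at 2364 CPM in replicate 2 and 2392 CPM in replicate 1, 50th and 48th among all genes. This gave 73.7 counts per 1000 of Mir322 in replicate 2 (interval 72.1 to 75.4) and 70.3 in replicate 1 (68.6 to 72.0).

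Mir542 gives miR-542-3p, which is known in human cells for repressing survivin, an inhibitor of cell death. Mir542 (ENSMUSG00000076140.1, chrX:53049403-53049487) was at 761 CPM in replicate 2 and 599 CPM in replicate 1. Its count per 1000 of Mir322 was 23.7 in replicate 2 (interval 22.8 to 24.7) and 17.6 in replicate 1 (interval 16.8 to 18.4), and these intervals do not overlap.

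The miR-450 hairpins had the lowest counts. Mir450b (ENSMUSG00000076050.1, chrX:53047997-53048078) was at 127 CPM in replicate 2 and 135 CPM in replicate 1, from 440 and 408 counts. Mir450-2 (ENSMUSG00000076399.1) was at 24.0 CPM in replicate 2 and 22.8 CPM in replicate 1, from 83 and 69 counts. Mir450-1 (ENSMUSG00000065486.1) was at 18.2 CPM in replicate 2 and 28.1 CPM in replicate 1, from 63 and 85 counts. Mir450b was thus 5.60 times the mean of Mir450-2, but Mir450-1 and Mir450-2 are the 2 members whose counts may leave out reads of the shared 5′ arm.

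**Figure D1:**
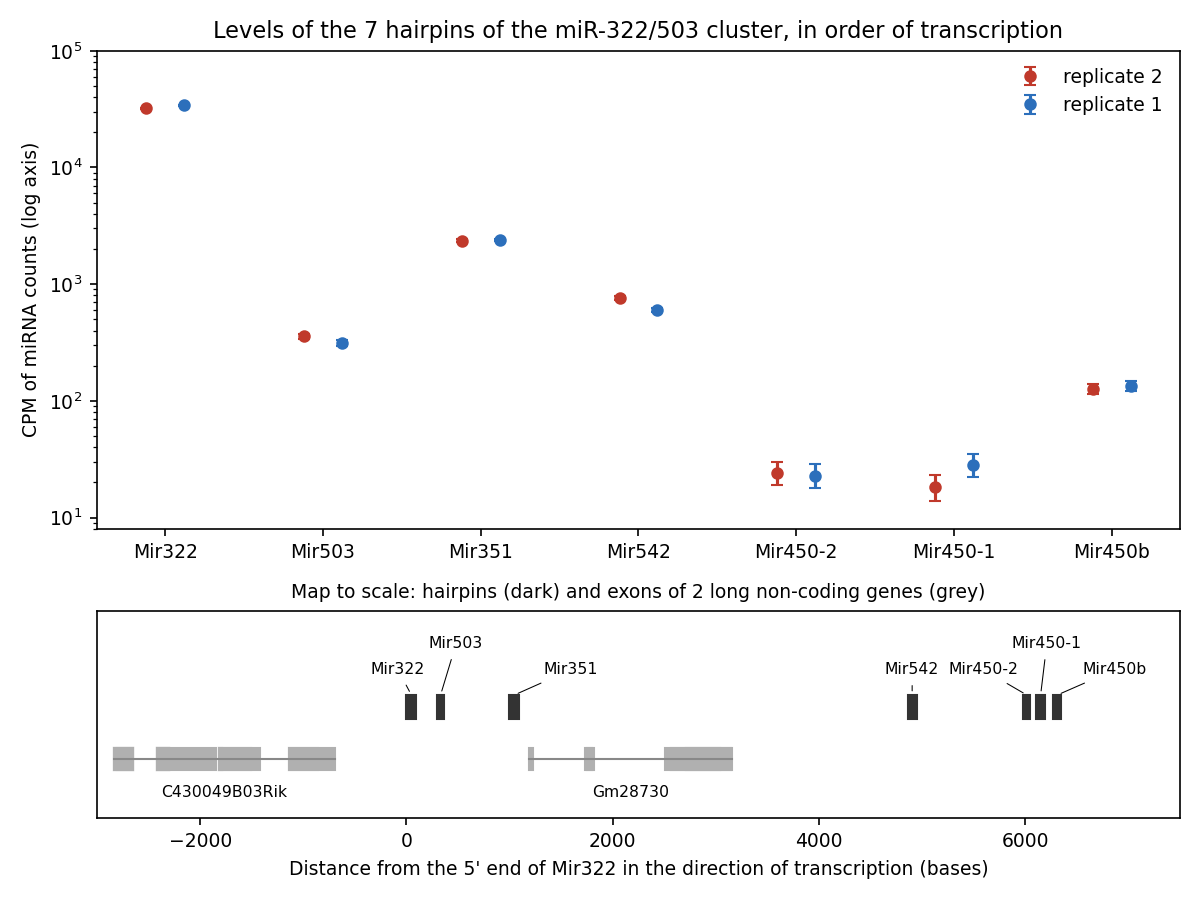
Top, CPM of each hairpin on a log axis in order of transcription, with 1 point per library and bars for exact 95% counting intervals. Bottom, the hairpins and the exons of 2 long non-coding genes to scale, by distance in bases from the 5′ end of Mir322. Mir322 is at 32072 CPM in replicate 2 and 34036 CPM in replicate 1, and Mir503 beside it lies below Mir351 and Mir542 further along.

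Ordered by mean level, the members ran Mir322 at 33054 ± 1389 CPM, Mir351 at 2378 ± 20.0, Mir542 at 680 ± 114, Mir503 at 334 ± 31.6, Mir450b at 131 ± 5.59, Mir450-2 at 23.4 ± 0.808 and Mir450-1 at 23.1 ± 7.01. The level therefore did not follow the order of transcription, in which Mir503 is the second hairpin and Mir450b the last. The first step was the widest, with Mir322 at 13.9 times Mir351. Mir351 was 3.50 times Mir542, Mir542 2.04 times Mir503, and Mir503 2.55 times Mir450b. Each neighbour pair down to Mir450b and Mir450-2 was separated in both libraries, with no overlap of the libraries' values or of their counting intervals. Mir450-2 and Mir450-1 exchanged places between the libraries and did not differ beyond their spread.

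The libraries themselves were compared with an exact two-sided binomial test with Benjamini-Hochberg adjustment over all 413 genes of 10 or more counts. This test compares these 2 libraries, not conditions, and its calls cover counting error only. Of the 7 members 2 were higher and 2 lower in replicate 2, whereas 3 did not pass. Over all genes tested 55.4% were called, 28.8% higher and 26.6% lower, so the members' 4 of 7 lies near the background. The calls over all genes were 119 higher and 110 lower, and 74 higher and 139 lower with unstranded counts, whose median log2 ratio was -0.14. Mir542 was 1.27 times its replicate 1 level (interval 1.20 to 1.35, adjusted p = 1.4e-14 by the exact test). Mir503 was 1.14 times its replicate 1 level (1.05 to 1.25, adjusted p = 0.00454, exact test), but with unstranded counts the ratio was 1.04 and did not pass (adjusted p = 0.463, exact test).

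Mir450-1 had a ratio of 0.647 (0.460 to 0.907, adjusted p = 0.0207 by the exact test) and was lower in replicate 2. It was the member with the largest difference between the libraries and also the one with the fewest counts in replicate 2. Mir322 had a ratio of 0.942 (0.934 to 0.950, adjusted p = 3.9e-42, exact test), and was lower in replicate 2. With Mir122 left out of the totals it was 0.988 (adjusted p = 0.00809, exact test). Mir351, Mir450b and Mir450-2 had ratios of 0.988, 0.941 and 1.05 and did not pass. With unstranded counts Mir351 (ratio 0.900, adjusted p = 2.11e-10, exact test) and Mir450b (ratio 0.857, adjusted p = 0.0489, exact test) passed as lower in replicate 2.

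The median difference of the 7 members, taken in either direction, was 1.06-fold, while it was 1.32-fold over all 413 genes and 1.25-fold over the 189 genes at 100 CPM or more. None of the members differed by 2-fold or more, as 90 of the 413 genes did and 28 of the 189 genes at 100 CPM or more. The median log2 ratio was -0.02 over the members and 0.03 over all genes tested.

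**Figure D2:**
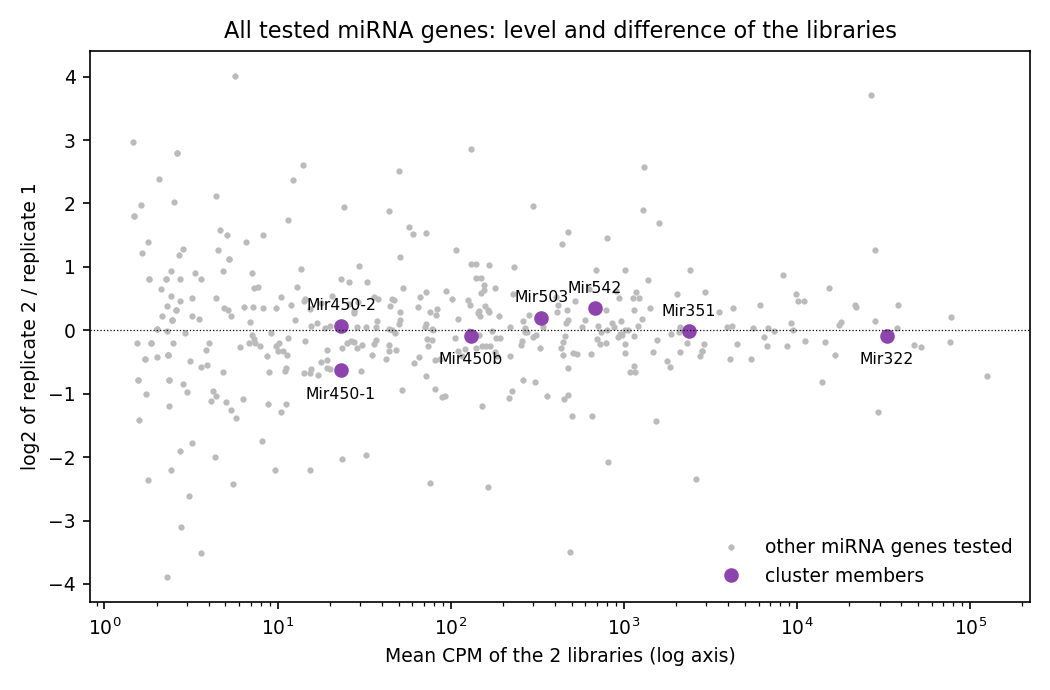
Each point is 1 of the 413 miRNA genes tested, with the mean CPM of the 2 libraries on a log axis and the log2 ratio of replicate 2 to replicate 1. The 7 members, in purple, lie between -0.63 for Mir450-1 and 0.34 for Mir542.

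Within the cluster the library total drops out. Relative to Mir322, Mir542 was 1.35 times (1.27 to 1.43) and Mir503 1.21 times (1.11 to 1.32) as high in replicate 2 as in replicate 1. Mir351 was 1.05 times as high (1.01 to 1.08). Mir450b stood at 0.999 (0.871 to 1.15) and Mir450-2 at 1.11 (0.800 to 1.56), intervals that include 1, whereas Mir450-1 was at 0.687 (0.488 to 0.963). The intervals of Mir542, Mir503, Mir351 and Mir450-1 leave out 1. These intervals are unadjusted, and none were formed for genes outside the cluster. The 55.4% of all tested genes called different is of CPM after adjustment, so it is not a like background. Nothing particular to the cluster is read from these intervals.

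**Figure D3:**
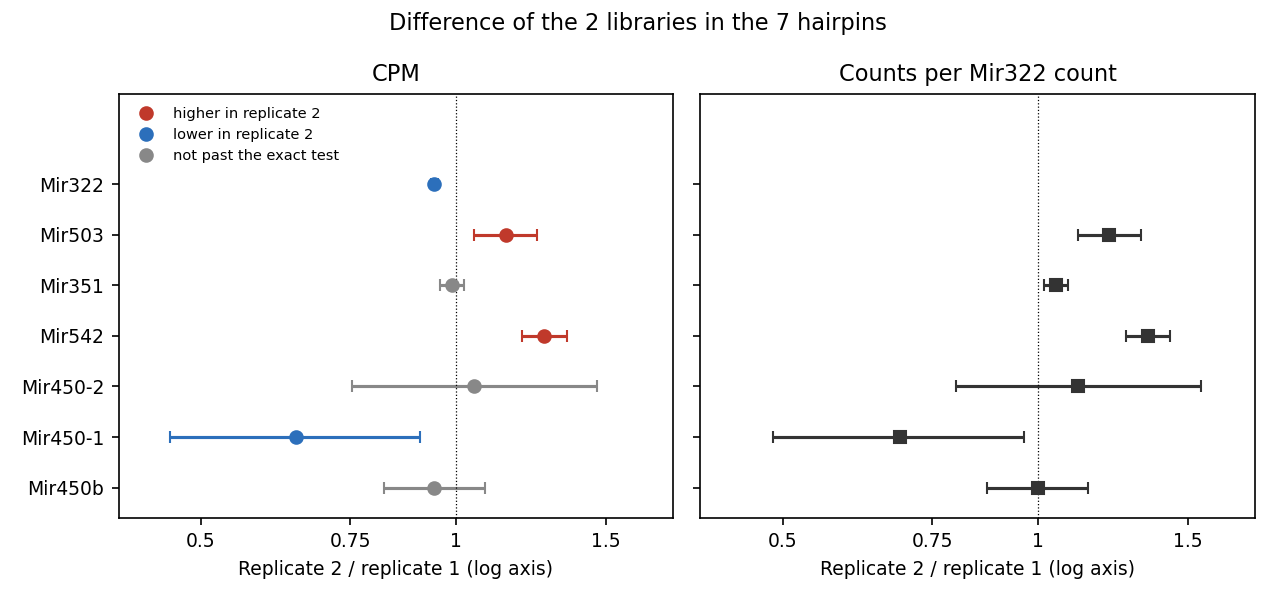
Ratio of replicate 2 to replicate 1 on a log axis, for CPM at left and for counts relative to Mir322 at right, with exact 95% counting intervals. Mir542 and Mir503 lie above 1 in both panels and Mir450-1 below it, while Mir450b crosses 1 in both.

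Mir322 was set beside the genes that give a mature miRNA of the same seed. Of 11 such genes, Mir322 included, 7 were at 2 CPM or more in both libraries and 4 had no count. The other 6 detected genes were Mir16-1 at 2833 ± 445 CPM, Mir15a at 2105 ± 360, Mir195a at 1586 ± 1180, Mir15b at 1139 ± 311, Mir497 at 794 ± 0.786 and Mir16-2 at 573 ± 12.8. In counts assigned to genes, Mir322 exceeded every one of them in both libraries, by 12.7-fold in replicate 2 and 10.8-fold in replicate 1 over Mir16-1. It made up 77.9% of the counts assigned to genes of this seed in replicate 2 (interval 77.7 to 78.1) and 79.1% in replicate 1 (78.9 to 79.4).

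These shares and the fold over Mir16-1 may be too high, and the order of Mir322 and miR-16-5p itself is not known from these counts. miR-16-5p is the same in Mir16-1 and Mir16-2, both of which share a 20-base stretch, and reads that map to both are in no gene. The summed level of the 10 genes outside the cluster was 9085 CPM in replicate 2 and 8976 CPM in replicate 1. Their sum changed little between libraries although Mir195a was 3.22 times its replicate 1 level.

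The seed of miR-351-5p gave a different picture. Mir351 and Mir125a were at like mean levels, 2378 ± 20.0 and 2423 ± 1087 CPM, and exchanged order between the libraries. Mir125a was at 3191 CPM in replicate 2 and 1654 CPM in replicate 1, so Mir351 stood at 0.741 of it in replicate 2 and 1.45 times it in replicate 1. Mir125b-1 and Mir125b-2 were at 220 ± 4.83 and 148 ± 15.9 CPM. The remaining 2 genes of this seed had no count. Mir125b-1 and Mir125b-2 both give miR-125b-5p, so their counts may also be too low. Mir351 made up 39.8% of counts assigned to genes of this seed in replicate 2 (interval 39.1 to 40.5) and 54.4% in replicate 1 (53.5 to 55.2).

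**Figure D4:**
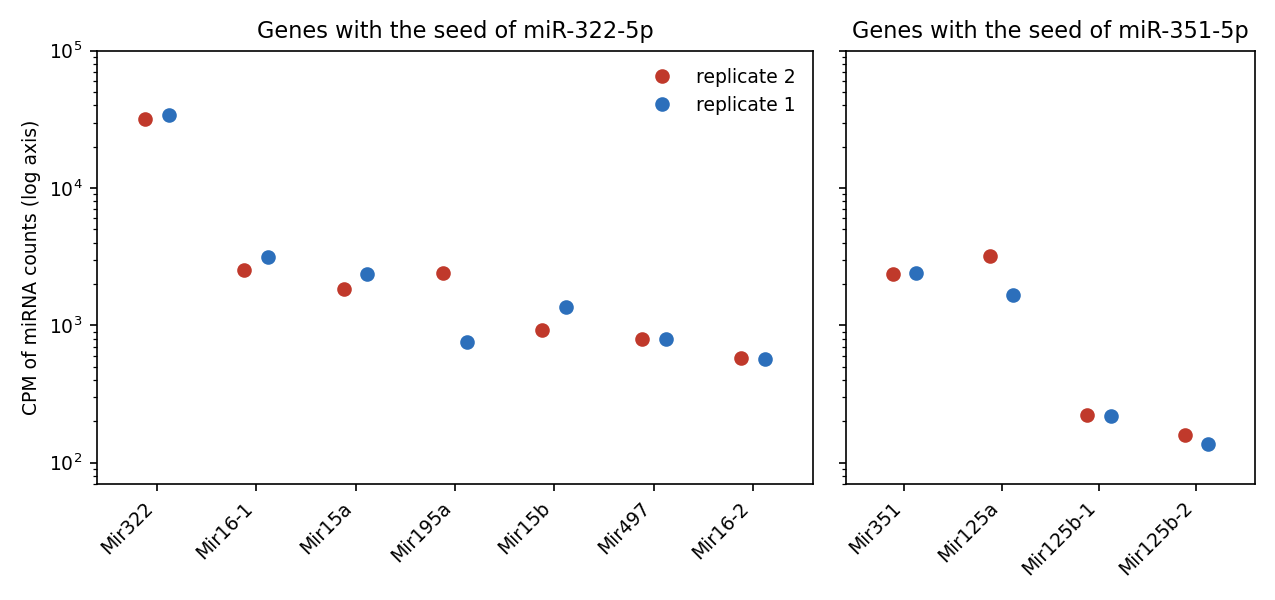
CPM on a log axis, with 1 point per library, for genes with the seed of miR-322-5p at left and of miR-351-5p at right; genes with no count are left out. In counts assigned to genes, which leave out multimapping reads, Mir322 lies above every other gene of its seed in both libraries. Mir351 lies below Mir125a in replicate 2 and above it in replicate 1.

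On the X chromosome 142 miRNA genes were measured, and 34 of them were at 2 CPM or more in both libraries. The cluster held 61.8% of the X-linked counts in replicate 2 (interval 61.6 to 62.0) and 60.8% in replicate 1 (interval 60.6 to 61.0). The X-linked genes next to it in level were Mir652 at 8798 ± 1036 CPM, Mir98 at 4088 ± 896 and Mirlet7f-2 at 3528 ± 504, the last 2 of the let-7 family. Of the 142 hairpins, 57 share a 20-base stretch with another locus, so this share may also be too high.

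How far 1 hairpin leads differs from cluster to cluster, and the values are given with no test. Mir322 held 90.2% ± 0.651 of its cluster, whereas Mir17 held 53.3% ± 4.17 of the 6 genes of the oncogenic Mir17 cluster. Mir20b held 35.1% ± 6.16 of the related Mir106a cluster, also on the X chromosome. Its mean of 92.8 CPM was close to the 89.3 CPM of Mir106a. That cluster summed to 197 CPM in replicate 2 and 317 CPM in replicate 1. Mir143, a miRNA of smooth muscle, held 97.8% ± 0.247 of its pair with Mir145a. In the Mir17 and Mir106a clusters 2 of 6 hairpins each share a stretch with another locus.

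By distance on log2(CPM + 1) over the 2 libraries, the genes nearest to Mir322 outside the cluster were Mir10a at 0.298, Mir375 at 0.373 and Mirlet7b at 0.443. They lie on chromosomes 11, 1 and 15. The genes nearest to Mir351 were Mir433 at 0.143, Mir361 at 0.233 and Mir324 at 0.251, of which Mir361 is also X-linked. With 2 libraries this measure mostly reflects a like level.

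Marker miRNAs of other cell types were also measured. Of the 9 miRNA genes listed for striated muscle, where the cluster is known to act, the sum was 12.1 CPM in replicate 2 and 8.93 CPM in replicate 1. Mir1a-1, Mir133a-1, Mir133a-2 and Mir133b were at 0, although 5 of the 9 share a stretch with another locus and may be counted too low. The hepatocyte marker Mir122 was at 49474 CPM in replicate 2 and 3786 CPM in replicate 1. The 3 red blood cell markers summed to 19202 and 43959 CPM in replicates 2 and 1, with Mir486, Mir144 and Mir451a all detected. Of these, Mir451a had a ratio of replicate 2 to replicate 1 of 0.409, Mir486 of 0.639 and Mir144 of 0.980. The endothelial marker Mir126a was at 94732 CPM in replicate 2 and 155646 CPM in replicate 1. The 3 white blood cell markers summed to 1475 CPM in replicate 2 and 2982 CPM in replicate 1, but did not move together, with ratios of 0.371 for Mir142, 0.768 for Mir150 and 2.88 for Mir223. The 4 neuroendocrine markers summed to 34282 CPM in replicate 2 and 31136 CPM in replicate 1, of which Mir375 made up 86.3% and 85.5%. Their ratios were 1.11 for Mir375, 1.05 for Mir7b, 0.954 for Mir7-1 and 0.901 for Mir7-2. The 6 smooth muscle and mesenchymal markers summed to 45553 CPM in replicate 2 and 53199 CPM in replicate 1, of which Mir143 made up 95.6% and 96.4%. The ratio was 0.849 for Mir143, 0.998 for Mir145a, 0.527 for Mir199b, 1.09 for Mir199a-2 and 1.25 for Mir214, while Mir199a-1 had 1 count in replicate 2 and 2 in replicate 1. The part of these cells in the cluster's levels was not tested, and no list held a miRNA that defines adrenal cortex cells.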

How the data were processed

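Small RNA of the adrenal gland was sequenced in 2 libraries. The deposited files give raw read counts per miRNA gene, which the authors did not normalize; per the notes deposited with them, the assembly is mm10 and the annotation GENCODE M21. For the aligner and the counter, no name is given in the sources used here. There are 3 count columns and 4 summary rows in each file. From the values, the columns count either strand, the strand of the gene and the opposite strand; the second was used. Summary rows stayed out of totals and tests, and miRNA genes took 40.9% of reads in replicate 2 and 42.2% in replicate 1.

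All 2202 gene IDs matched GENCODE M21. RefSeq (GRCm38.p6) held mature sequences for all 7 members and hairpins for 6, identical to those of GENCODE. CPM is the count over the library's miRNA total. Genes of 10 or more counts were tested with an exact binomial test, adjusted by Benjamini-Hochberg at 0.05. The test was checked on simulated data that held counting error only, so that check does not cover other variation between libraries. Shares have Clopper-Pearson intervals, and ratios to Mir322 exact conditional intervals. Named genes are the members, up to 6 genes of a seed by mean CPM, the 3 nearest genes, the 3 leading X-linked genes, the compared clusters' leading genes and partner, and the listed cell type markers. Members and lists were chosen with earlier results of these data known. Alternatives were unstranded counts, removal of genes sharing a 20-base stretch, edgeR's TMM, DESeq2's size factors, other totals, detection limits and filters, and each library alone; those for seed and X-linked shares were chosen after seeing the data. Library sizes came from edgeR 4.0.16 and DESeq2 1.42.0 in R 4.3.3, tests from SciPy 1.17.1 with Python 3.11.15, pandas 2.3.3 and NumPy 2.4.6, and plots from matplotlib 3.10.9.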

Additional observations from a re-analysis of the deposited data

Results flagged for a closer look

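Reads that no comparison used are given as values, because there were no control samples and each exceeds the limit of 3 counts. Multimapping reads, in which reads of miR-450a-5p would be counted, numbered 2497097 in replicate 2 and 1972020 in replicate 1. Reads in no miRNA gene on its strand numbered 564289 in replicate 2 and 486671 in replicate 1. On the strand opposite the members, 2 counts in replicate 2 and 3 in replicate 1 were found, all at Mir322, which do not exceed that limit.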

How the results depend on the processing

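The summed level of the cluster, 36624 CPM, became 49912 CPM with unstranded counts, 43616 CPM without genes that share a 20-base stretch and 15212 CPM with all reads of the file as the total, since the totals shrink or grow. In the single libraries it was 35723 and 37525 CPM, and Mir322's share of the cluster lay between 89.8% and 90.7% in all 4 alternatives. The number of members that differ between the libraries was 3 to 5 in 7 alternatives, with 1 higher and 4 lower for unstranded counts, which moved the median log2 ratio of all genes to -0.14 and the split of all calls to 74 higher and 139 lower, against 119 and 110 with counts on the gene's strand. Without Mir122 Mir351 turned to 1.04, and without genes sharing a stretch to 1.01; with unstranded counts Mir450-2 turned to 0.956. None of these 3 ratios passed the test. Each of these settings changes the library totals, which shifts the ratios of all members together by nearly the same factor. What moved the unstranded totals was not tested. Mir322, Mir542 and Mir450-1 kept their direction and call in every alternative that held them, and Mir450b (0.857) and Mir351 (0.900) passed as lower with unstranded counts. Mir322's share of the counts of genes with its seed was 80.0% with unstranded counts and 85.4% without genes sharing a stretch. The cluster's share of X-linked counts was 65.2% without the latter genes. Leaving out Mir16-1 and Mir16-2 could only raise Mir322's share, so 85.4% cannot check whether that share is too high. On the X chromosome the removal took out 55 genes outside the cluster and 2 members, so 65.2% is no such check either. No paired analysis was possible because there is 1 group. A fit without 1 library could not compare the libraries. Depth limits Mir450-1 and Mir450-2, with fewer than 100 counts in each library.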

Other observations

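The 6 detected genes with the seed of miR-322-5p outside the cluster lie in 3 neighbouring pairs, and the libraries differed in how far the partners moved together. Mir195a, at 241 bases from Mir497 on chromosome 11, was 3.22 times its replicate 1 level (exact interval 3.08 to 3.38), whereas Mir497 had a ratio of 0.999 (0.945 to 1.06). Mir15b on chromosome 3 had a ratio of 0.676 (0.646 to 0.709) and Mir16-2, 66 bases from it, a ratio of 1.03 (0.967 to 1.10). Mir15a and Mir16-1, 54 bases apart on chromosome 14, had like ratios of 0.785 (0.758 to 0.812) and 0.800 (0.777 to 0.824). Both Mir16-1 and Mir16-2 give miR-16-5p, and reads that map to both are in no gene. The ratios of these 2 genes may therefore not be those of miR-16-5p, in either pair. These are counting intervals of 2 libraries, and the pairs were chosen after their values were seen.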
